A study of Mus musculus with 11 samples.

Results

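Immediate early genes are transcribed within minutes of a stimulus from factors that the cell already holds, without new protein synthesis, and their mRNAs are short lived. In neurons they follow calcium entry and kinase signaling through CREB and SRF, the factors that bind the cAMP response element (CRE) and the CArG box, and several of them encode transcription factors that set a second wave of gene expression. Staining for Fos is widely used as a marker of recently active neurons, and in sensory ganglia AP-1 proteins are also known from nerve injury.

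The 10 genes described here were *Fos*, *Fosb*, *Junb*, *Egr1*, *Egr3*, *Arc*, *Nr4a1*, *Ier2*, *Dusp1* and *Npas4*. They were chosen by gene symbol, and each matched 1 of the 36670 genes in the table. In this set of 11 bulk RNA-Seq libraries of mouse dorsal root ganglia (DRGs), 8 of the 10 were among the 15087 genes with a mean of at least 0.5 FPKM, the filter used for testing. *Fosb* and *Npas4* fell below it. FPKM is an expression level divided by transcript length and by library size, so that genes can be compared with each other. In brief, the means of the members over all libraries ran from 0.0809 to 7.49 FPKM, and none passed an adjusted p of 0.05 in any comparison. *Fos*, *Junb*, *Arc*, *Ier2* and *Dusp1* had lower means in WT mice given paclitaxel (PTX) than in WT controls, by 0.35 to 0.56 on the log2 scale. Except for *Ier2*, both male controls were the high libraries among the WT mice.

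WT mice gave 3 control libraries and 3 libraries taken 4 weeks after PTX. Mice lacking *Gpr37l1* (KO) gave 3 control libraries and 2 taken 4 weeks after PTX. PTX is a chemotherapy drug that stabilizes microtubules and causes a painful neuropathy, and *Gpr37l1* encodes an orphan GPCR of satellite glial cells (SGCs), the glia that wrap sensory neurons. The KO is a targeted germline allele kept on a C57BL/6 background and is not limited to glia. Replicate numbers are those of the sample descriptions, which number the KO PTX mice 2 and 3, whereas the sample titles number them 1 and 2, and which is right is not known. By the descriptions, replicate 3 is labelled female and all other libraries male in every group, so sex cannot be told apart from that number. The age of the sequenced mice, the PTX dose, any vehicle given to controls, the level of the ganglia and the interval between handling and dissection were not given in the sources used here.

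Library totals were 52735648 to 80348732 estimated counts, with the KO PTX libraries at 54914928 and 56747335. *Gpr37l1* was at 27.6 to 35.7 FPKM in WT controls, 14.6 to 31.7 FPKM in WT PTX mice, 0.21 to 0.29 FPKM in KO controls, and 0.60 and 1.15 FPKM in KO PTX mice, in the direction of the labels. The 13 sensory neuron markers summed to 4302 to 5437 FPKM and the 5 SGC markers to 217.8 to 354.9 FPKM over all libraries, so the labelled tissue was present in each. Tissue from outside the ganglion was present too and uneven, since the 9 skeletal muscle markers summed to 3.58 to 593.1 FPKM and the 7 spinal cord markers to 4.01 and 16.2 FPKM in the KO PTX libraries against 0.51 to 4.25 FPKM in the others. In bulk RNA, fewer cells of a type and less RNA per cell cannot be told apart.

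The promoters of 4 members are shown. Of these, *Fos*, *Junb* and *Dusp1* had lower means in WT PTX mice, while *Nr4a1* had the highest level and the narrowest range. None of these differences passed the test. *Arc* and *Ier2*, also lower in WT PTX mice, had no promoter window, and those of *Fosb* and *Npas4*, which fell below the filter, are not printed. RefSeq held promoter windows for 6 of the 10 members (*Fos*, *Fosb*, *Junb*, *Npas4*, *Nr4a1* and *Dusp1*), each from 250 bases before the annotated start to 50 after it. For *Nr4a1* and *Dusp1* that start lies well inside the measured gene. The measured gene begins at chr15:101254269 for *Nr4a1* and, on the minus strand, at chr17:26562128 for *Dusp1*. Other starts of these genes were not searched. The lines give the 250 bases before the start, 5′ to 3′ on the gene's strand, in GRCm38.p6. Capitals mark letters of a CRE (TGACGTCA), the short CRE motif (TGACG) or a TATA box (TATAAA), on either strand.
*Fos*, chr12:85473640-85473889, plus strand: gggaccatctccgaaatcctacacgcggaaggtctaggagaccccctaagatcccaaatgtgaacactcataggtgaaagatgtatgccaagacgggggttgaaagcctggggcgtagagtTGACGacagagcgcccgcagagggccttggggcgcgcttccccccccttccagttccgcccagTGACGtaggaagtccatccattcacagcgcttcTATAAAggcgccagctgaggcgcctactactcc
*Junb*, chr8:84978749-84978998, minus strand: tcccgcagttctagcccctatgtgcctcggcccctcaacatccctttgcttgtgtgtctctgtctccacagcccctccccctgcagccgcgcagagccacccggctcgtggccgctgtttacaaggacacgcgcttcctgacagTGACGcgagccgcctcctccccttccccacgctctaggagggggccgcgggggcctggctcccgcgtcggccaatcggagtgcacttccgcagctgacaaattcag
*Dusp1*, chr17:26508473-26508722, minus strand: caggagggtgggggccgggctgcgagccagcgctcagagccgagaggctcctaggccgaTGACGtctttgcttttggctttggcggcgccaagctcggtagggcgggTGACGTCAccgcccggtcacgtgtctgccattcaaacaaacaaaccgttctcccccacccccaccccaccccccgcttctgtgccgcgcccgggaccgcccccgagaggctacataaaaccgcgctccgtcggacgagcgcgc
*Nr4a1*, chr15:101266596-101266845, plus strand: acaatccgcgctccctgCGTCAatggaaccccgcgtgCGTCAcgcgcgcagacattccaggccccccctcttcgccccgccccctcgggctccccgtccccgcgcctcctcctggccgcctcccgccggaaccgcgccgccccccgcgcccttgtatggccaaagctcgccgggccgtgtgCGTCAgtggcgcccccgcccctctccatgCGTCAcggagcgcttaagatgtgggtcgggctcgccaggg

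All 6 members with a window held the short CRE motif on at least 1 strand, a motif found in 20.8% of the 32851 promoter windows in the table. The short motif is part of the full CRE, so a full CRE also counts as a short one. The full CRE was found in *Dusp1* alone, with its first base at position -143 from the start, against 1.79% of all windows. *Fos* held the short motif at positions -129 and -66 and a TATA box at position -33. In *Junb* the TATA box began at the first base of the annotated RefSeq transcript, past the end of the printed line, and the short motif lay at position -106. *Nr4a1* held 4 short CRE motifs, all on the opposite strand, and no TATA box, which was found in 13.6% of all windows. None of the 6 windows held the CArG box, searched as CC, 6 letters of A or T, and GG (1.63% of all windows). Absent too were the AP-1 site TGAGTCA (5.20%), the EGR site GCGTGGGCG (0.612%) and the NBRE AAAGGTCA, the site that Nr4a1 protein is known to bind (1.51%). Sites outside the windows and other spellings of any motif were not searched, so a missing match does not show that a site is lacking. A match describes the letters of this window and shows neither binding nor use in these ganglia.

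**Figure D1:**
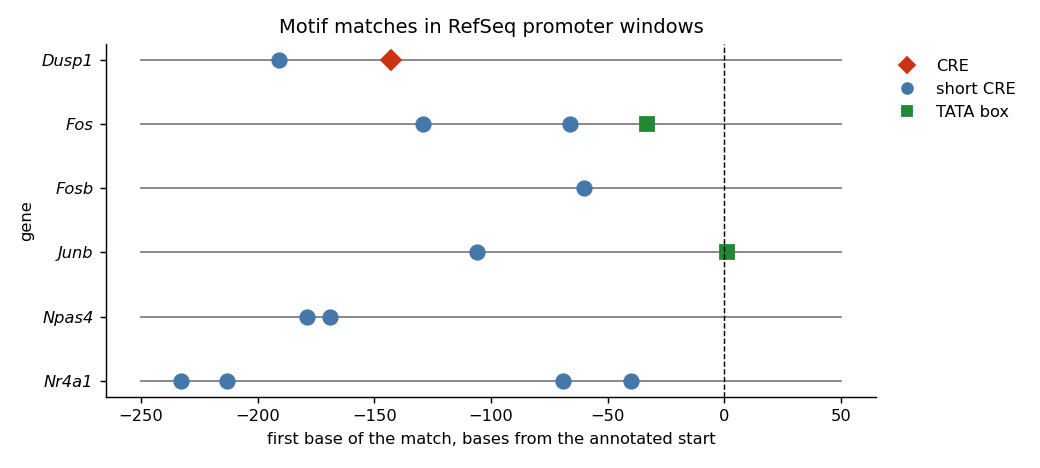
Matches to the CRE, the short CRE motif and the TATA box in the promoter windows of 6 immediate early genes, by the distance in bases of the first matching base from the annotated start (dashed line). The short motifs inside the full CRE of *Dusp1* are not drawn again. Every window has at least 1 short CRE motif, and *Fos* and *Junb* have a TATA box (TATAAA, the only spelling searched).

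*Nr4a1*, *Junb* and *Dusp1* were the highest members in every group mean, and *Fosb* and *Npas4* the lowest. *Nr4a1*, an orphan nuclear receptor, had a mean of 7.49 ± 0.70 FPKM (SD, n = 11 libraries), above 83.4% of the genes with any expression, and *Arc*, the lowest tested member, was above 64.2% of them. *Junb*, an AP-1 subunit, followed at 5.72 ± 1.15 FPKM and *Dusp1*, a phosphatase that inactivates MAP kinases, at 4.42 ± 0.84 FPKM (SD, n = 11 each). The order of *Nr4a1* and *Junb* did not hold in every mouse, since *Nr4a1* was above *Junb* in 2 of 3 WT controls and in all mice of the other groups.

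*Egr1* came next in every group mean, and the genes after it were close. *Egr1*, a zinc finger factor, had 2.88 ± 0.42 FPKM, the serum-induced gene *Ier2* 2.0 ± 0.42 FPKM, the AP-1 subunit *Fos* 1.82 ± 0.56 FPKM and *Egr3*, a relative of *Egr1*, 1.71 ± 0.53 FPKM (SD, n = 11 each). *Arc*, which encodes a synaptic protein that controls AMPA receptor uptake, had 1.37 ± 0.32 FPKM (SD, n = 11). *Egr1* was above *Ier2* in all libraries except WT control 1. From *Ier2* to *Arc* the ranges of neighbours over all libraries overlapped. Their order changed between groups: *Fos* was above *Ier2* in the mean of KO controls and below it in the other groups. Within a group the order could be firm. In WT PTX mice *Ier2* was above *Fos* and *Fos* above *Arc* in 3 of 3 mice. In WT controls *Fos* was above *Egr3* in 3 of 3 mice. *Fosb* at 0.145 ± 0.051 FPKM and *Npas4*, a neuron-specific factor that follows depolarization, at 0.0809 ± 0.029 FPKM (SD, n = 11 each) were far below *Arc* in every mouse. *Npas4* had only 8 to 32 estimated counts a library and *Fosb* 36 to 126.

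By the SD within groups, mice of one group spread more in the 8 tested members than in the median gene. The SD within groups on the log2(FPKM + 1) scale was 0.31 for *Egr3*, 0.26 for *Fos*, 0.23 for *Dusp1* and 0.22 for *Junb*, against a median of 0.12 over the 15087 genes. For *Egr3*, 93.4% of these genes had a smaller SD, for *Fos* 89.9%, for *Dusp1* 86.7%, for *Junb* 84.9% and for *Egr1* 77.0%. The share was smallest for *Nr4a1*, at 63.7%. Against genes of like abundance the spread could be judged only in part. The value edgeR gives for a gene is drawn toward its trend over abundance, so nearness to the trend is partly built in. The biological coefficient of variation that edgeR estimated was 0.24 for *Fos* where its trend over abundance lay at 0.26. It was also below the trend for *Nr4a1* (0.11 against 0.14), *Arc* (0.22 against 0.26), *Ier2* (0.21 against 0.28) and *Junb* (0.18 against 0.19). It was above the trend for *Egr3* (0.24 against 0.21), *Dusp1* (0.18 against 0.17) and *Egr1* (0.18 against 0.17). Against the median gene, at 0.13, this coefficient was lower for *Nr4a1* and higher for the other tested members. The ratio of the highest to the lowest library ran from 1.43 for *Nr4a1* and 1.44 for *Egr1* to 2.40 for *Fos* and 2.49 for *Egr3*. No group was needed to reach that range, since *Fos* had both its highest and its lowest value among the 3 WT controls.

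**Figure D2:**
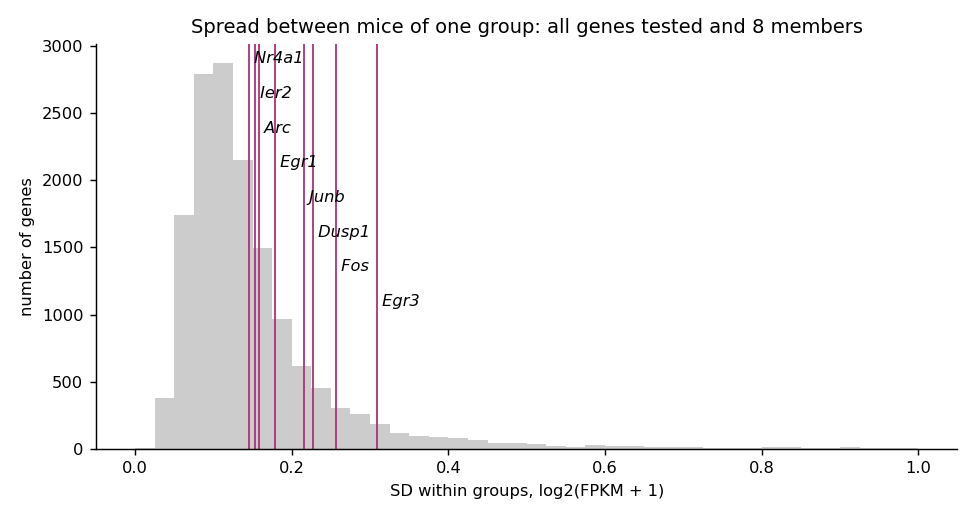
SD within groups of log2(FPKM + 1), pooled over the 4 groups (horizontal axis), for the genes tested with an SD of up to 1 (grey bars, number of genes) and for 8 immediate early genes (lines). All 8 lines lie to the right of the median of all genes at 0.12, with *Egr3* farthest at 0.31.

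The first comparison asked whether DRGs of WT mice differed 4 weeks after PTX. *Fos*, *Junb*, *Arc*, *Ier2* and *Dusp1* had lower means after PTX, *Nr4a1* and *Egr1* were at nearly the same level, and *Egr3* had a higher mean. None of the 8 passed the test, and 0.00663% of all genes did (1 gene).

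*Fos* was measured at 1.91, 3.02 and 1.26 FPKM in WT controls 1 to 3 and at 1.35, 1.31 and 1.38 FPKM after PTX. The PTX mice were nearly alike, whereas the controls spread around them, with the female control below all 3. The log2 fold change was -0.56 (SE 0.25, 95% CI -1.12 to -0.0023, adjusted p = 0.371).

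*Junb*, which partners Fos in AP-1, was at 6.54, 8.28 and 4.64 FPKM in controls and 4.34, 5.16 and 4.50 FPKM after PTX. The groups overlapped through control 3, which lay below PTX mouse 2. Its log2 fold change was -0.47 (SE 0.19, 95% CI -0.90 to -0.045, adjusted p = 0.348).

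*Arc* showed the same layout, with 1.68, 1.66 and 1.00 FPKM in controls against 1.04, 1.03 and 0.95 FPKM after PTX, and only the female control fell among the PTX mice. Its log2 fold change was -0.52 (SE 0.23, adjusted p = 0.369). *Dusp1*, the phosphatase, was at 5.59, 5.96 and 3.24 FPKM in controls and 3.93, 3.42 and 4.09 FPKM after PTX. Here the female control was the lowest of all 11 libraries, and the log2 fold change was -0.35 (SE 0.19, adjusted p = 0.443).

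*Ier2* was the only tested member whose WT groups did not overlap, at 3.12, 1.87 and 2.32 FPKM in controls against 1.76, 1.67 and 1.74 FPKM after PTX. Over all genes tested, 7.37% had every PTX mouse below every WT control, so 1 of 8 members is near that background. An exact two-sided permutation test of the *Ier2* FPKM gave p = 0.1, the smallest value that 3 mice against 3 allow. The log2 fold change was -0.50 (SE 0.22, adjusted p = 0.359), with control 1 the highest of all libraries and control 2 close to the PTX mice. Without control 1 it was -0.25.

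*Nr4a1* had close means, with 7.96, 7.90 and 6.77 FPKM in controls and 7.66, 8.13 and 5.68 FPKM after PTX. Its log2 fold change of -0.087 had the narrowest interval of the members, from -0.31 to 0.14. *Egr1* was at 2.91, 3.18 and 2.51 FPKM in controls and 2.46, 2.47 and 3.36 FPKM after PTX, where the female PTX mouse was above all controls (log2 fold change -0.066, 95% CI -0.48 to 0.35). *Egr3* went the other way, at 1.01, 2.42 and 1.23 FPKM in controls and 2.51, 2.18 and 1.34 FPKM after PTX (log2 fold change 0.34, SE 0.26, adjusted p = 0.561).

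As a group, 7 of the 8 tested members had lower means after PTX in WT, with a median log2 fold change of -0.41 against -0.0058 over all genes. At an unadjusted p under 0.05, 4 of 8 members were lower (*Fos*, *Junb*, *Arc* and *Ier2*), where 6.87% of all genes were. No member was higher at that level. The members were chosen with earlier results of these data known, so these counts are a description. *Fosb*, at 0.12, 0.09 and 0.17 FPKM in controls and 0.17, 0.09 and 0.17 FPKM after PTX, overlapped between the groups. *Npas4*, at 0.13, 0.09 and 0.07 FPKM against 0.08, 0.05 and 0.03 FPKM, also overlapped, and in a fit of all genes without the filter its log2 fold change was -0.85 (SE 0.51, adjusted p = 0.808).

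**Figure D3:**
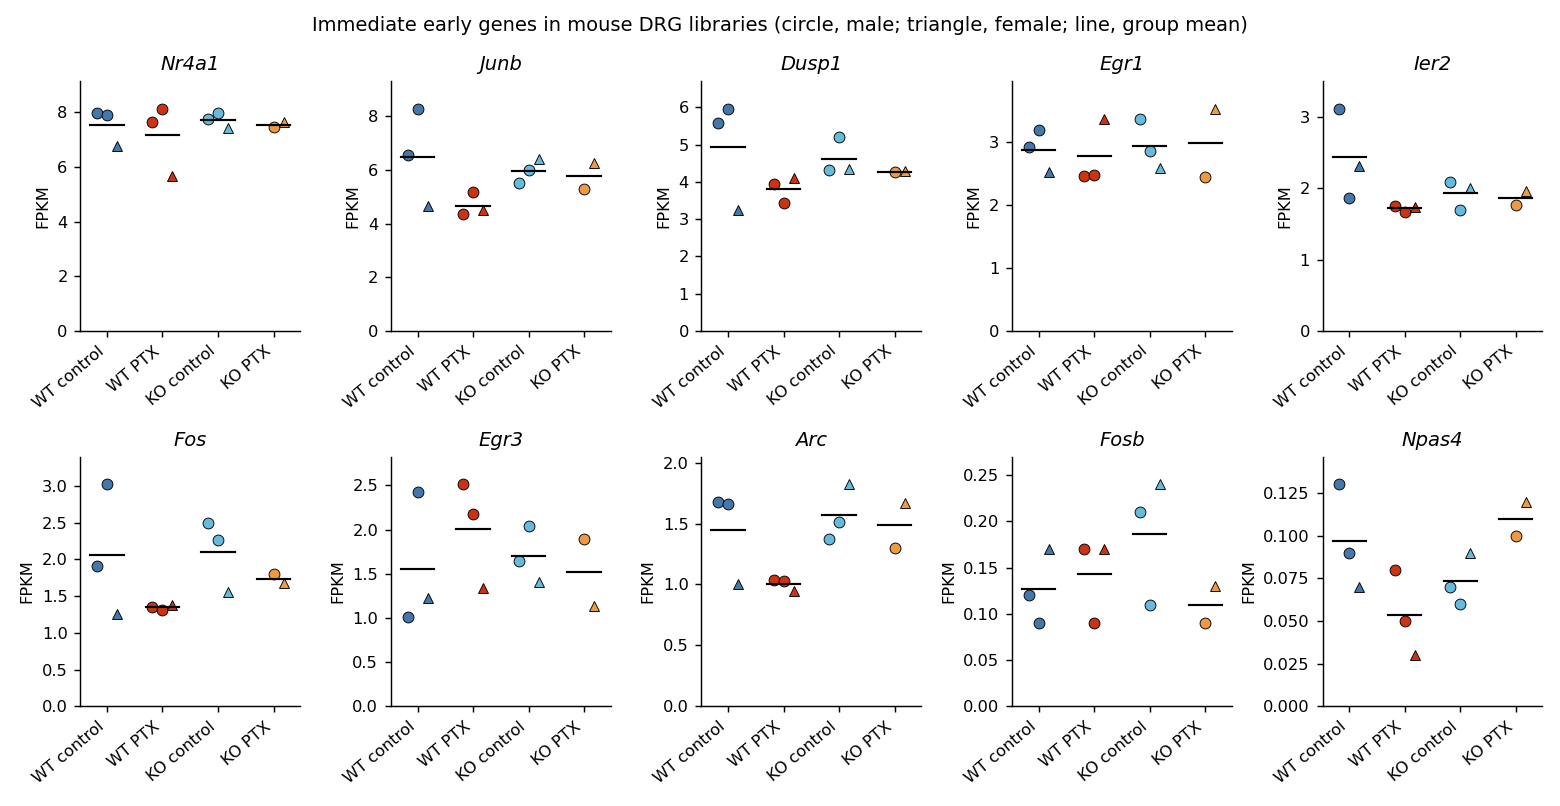
FPKM of the 10 immediate early genes in each library by group, from 0 on a linear scale (circles, male mice; triangles, female mice; lines, group means; 3 mice a group and 2 in KO PTX). In *Fos*, *Junb*, *Arc* and *Dusp1* the male WT controls lie above all WT PTX mice and the female WT control lies among or below them.

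Within the sexes the PTX difference was uneven. In males alone, both WT controls lay above both WT PTX mice for *Fos*, *Junb*, *Arc*, *Dusp1*, *Ier2* and *Egr1*, 6 of the 8 tested members. Over all genes tested, 18.9% showed the same with these 4 mice. A fit of the 7 male libraries, added after the data were seen, gave log2 fold changes of -0.91 for *Fos* (SE 0.25, adjusted p = 0.289), -0.66 for *Junb* (SE 0.18, adjusted p = 0.287), -0.71 for *Arc* (SE 0.19, adjusted p = 0.287) and -0.67 for *Dusp1* (SE 0.15, adjusted p = 0.255), still short of the threshold. The 1 female control and the 1 female PTX mouse gave *Fos* at 1.26 and 1.38 FPKM, *Junb* at 4.64 and 4.50 FPKM, *Arc* at 1.00 and 0.95 FPKM, *Dusp1* at 3.24 and 4.09 FPKM and *Ier2* at 2.32 and 1.74 FPKM, with no replicate. Whether the PTX difference depends on sex was not tested. Without WT control 3 the lowest adjusted p of any member was reached, 0.0810 for *Junb*, and its log2 fold change was -0.71. Without WT control 2 the value was nearer to 0 for *Fos* (-0.26), *Junb* (-0.27) and *Dusp1* (-0.22) and farther from it for *Ier2* (-0.67) and *Egr3* (0.70). Without WT control 1, *Egr3* was at 0.055.

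Other measures moved beside this difference. All 8 macrophage markers had lower values after PTX in WT, with a median log2 fold change of -0.58, and summed to 30.8 to 40.4 FPKM in controls against 22.0 to 27.0 FPKM after PTX, none of them called. The 8 tested muscle markers had a median of -2.79, with sums of 15.8 to 542.7 FPKM against 3.58 to 177.4 FPKM. The blood markers had a median of -0.56, while the sensory neuron markers had -0.034 and the SGC markers 0.017. At an unadjusted p under 0.05 in the edgeR fit, 7 of 8 macrophage markers were lower, where 6.87% of all genes were. So were 4 of 13 neuron markers, 1 of 5 SGC markers, 1 of 8 tested muscle markers and 0 of 8 blood markers. Neuron sums were 4377 to 5437 FPKM in controls and 4302 to 4527 FPKM after PTX. SGC sums were 262.1 to 354.9 FPKM in controls and 231.2 to 307.1 FPKM after PTX. Among WT mice both sums were highest in controls 1 and 2. The part of macrophages, muscle, blood, neurons and SGCs in the values of the members was not tested.

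Among 43 other immediate early and early response genes, 36 were tested and none was called for PTX in WT, with 27 lower and 9 higher and a median log2 fold change of -0.16. The 4 with the most negative values were *Atf3*, *Gadd45g*, *Socs3* and *Ccn1*. *Atf3*, a stress-induced CREB family factor and a classical marker of injured sensory neurons, was at 34.8, 60.2 and 2.79 FPKM in controls and 5.09, 11.3 and 1.90 FPKM after PTX. Male controls 1 and 2 were above every other library, the next being KO control 2 at 19.4 FPKM, and the female mouse was the lowest of each group (log2 fold change -2.02, SE 0.52, adjusted p = 0.238). *Gadd45g*, a growth arrest gene, was at 10.4, 14.3 and 4.98 FPKM in controls against 4.97, 4.22 and 3.67 FPKM after PTX (log2 fold change -1.14, SE 0.25, adjusted p = 0.203). *Socs3*, a feedback inhibitor of cytokine signaling, had a log2 fold change of -0.88 and *Ccn1*, a matricellular gene, -0.74, and *Socs3* was again highest in WT controls 1 and 2. On the other side, *Klf4* at 0.38, the MAP kinase phosphatase *Dusp4* at 0.31, the clock gene *Per1* at 0.21 and the synaptic scaffold gene *Homer1* at 0.17 had the largest positive values, all with adjusted p of at least 0.414. WT controls 1 and 2 were thus the highest of all libraries in *Atf3*, *Gadd45g* and *Socs3*, and also in *Junb* and *Dusp1*. For *Fos*, WT control 2 was the highest and WT control 1 lay below KO controls 1 and 2.

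**Figure D4:**
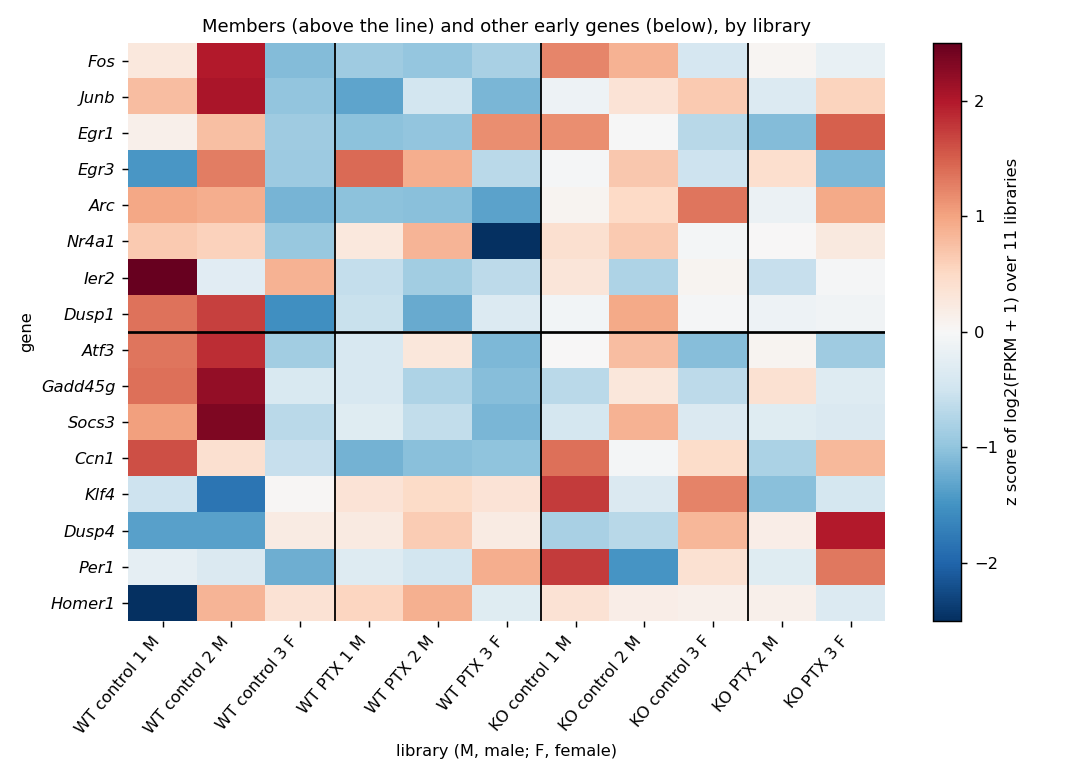
Levels of the 8 tested immediate early genes (above the line) and of the 4 lowest and 4 highest other early genes for PTX in WT (below), as z scores of log2(FPKM + 1) over the 11 libraries (columns; M, male; F, female). WT controls 1 and 2 are above the mean in 7 of 8 members, and WT control 3 in 1 of 8.

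Across libraries the mean z score of the 8 members, a summary of their joint level, was 0.66 and 1.12 in WT controls 1 and 2 and -0.83 in WT control 3. It was -0.46, -0.48 and -0.81 in the WT PTX mice, 0.37, 0.39 and 0.042 in KO controls, and -0.22 and 0.23 in KO PTX mice. The widest gap between any libraries lay inside the WT control group.

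The second comparison was PTX in KO mice, and no member passed the test. For *Fos*, KO controls were at 2.49, 2.26 and 1.56 FPKM and KO PTX mice at 1.80 and 1.68 FPKM, inside the range of the controls. Its log2 fold change of -0.17 (SE 0.28, 95% CI -0.80 to 0.46) was the most negative of the members. *Nr4a1* was at 7.77, 7.96 and 7.42 FPKM in KO controls and 7.46 and 7.64 FPKM after PTX, with the most positive log2 fold change, 0.0064 (95% CI -0.24 to 0.26). The median over the 8 was -0.056, all adjusted p were at least 0.999, and 0.00663% of all genes were called (1 gene).

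*Junb* was at 5.50, 6.01 and 6.39 FPKM in KO controls and 5.28 and 6.27 FPKM in KO PTX mice, which overlap. *Arc*, the synaptic gene, was at 1.37, 1.51 and 1.82 FPKM against 1.30 and 1.67 FPKM, and again the male PTX mouse was the lower. *Ier2* was at 2.09, 1.70 and 2.0 FPKM against 1.77 and 1.97 FPKM. *Egr1* showed a wide gap between the KO PTX mice, at 2.44 and 3.52 FPKM, around controls at 3.36, 2.85 and 2.58 FPKM. *Egr3* was at 1.65, 2.04 and 1.41 FPKM in KO controls and at 1.89 and 1.14 FPKM after PTX. *Dusp1* alone among the tested members had both PTX mice, at 4.26 and 4.29 FPKM, below all KO controls, at 4.31, 5.19 and 4.34 FPKM. That separation was 0.02 FPKM at its narrowest, 10.4% of all genes showed the same, and an exact two-sided permutation test gave p = 0.2 (log2 fold change -0.074, SE 0.22). With 3 mice against 2, p = 0.2 is the smallest value this exact test can give. *Fosb*, at 0.21, 0.11 and 0.24 FPKM in KO controls and 0.09 and 0.13 FPKM after PTX, had a log2 fold change of -0.78 in the fit without the filter (SE 0.41, 95% CI -1.66 to 0.10). *Npas4* went the other way from its WT values, with KO PTX mice at 0.10 and 0.12 FPKM above all KO controls at 0.07, 0.06 and 0.09 FPKM (log2 fold change 0.57, SE 0.56, in the same fit).

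Of the other early response genes, *Ccn2* at -0.60, *Klf4* at -0.57, the myelination factor *Egr2* at -0.45 and *Ier5l* at -0.37 had the most negative log2 fold changes for PTX in KO. *Gadd45g* at 0.31, *Dusp4* at 0.27, *Gadd45b* at 0.26 and the kinase gene *Plk3* at 0.16 had the most positive. None of the 36 was called. *Klf4* had a positive value in WT and a negative one in KO, and the test of that difference did not call it or any other gene of the list. Spinal cord markers, of which 2 passed the filter, had a median of 3.59 in this comparison, and the 5 fibroblast markers had -0.55. Their part in the values of the members was not tested.

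Between KO and WT controls no member passed the test either. The log2 fold changes ran from -0.34 for *Ier2* (SE 0.21, 95% CI -0.82 to 0.14) to 0.14 for *Egr3* (95% CI -0.44 to 0.72), with a median of 0.034 over the 8 members and 0.0032 over all genes. Without WT control 1, *Ier2* was at -0.085 and *Egr3* at -0.14. No tested member was separated between the groups in FPKM, all adjusted p were at least 0.694, and 0.00663% of all genes were called (1 gene, *Gpr37l1* itself). *Fos* had 2.06 ± 0.89 FPKM in WT and 2.10 ± 0.48 FPKM in KO controls (SD, n = 3 each). *Nr4a1* had 7.54 ± 0.67 and 7.72 ± 0.27 FPKM (SD, n = 3 each). *Fosb* was at 0.12, 0.09 and 0.17 FPKM in WT and 0.21, 0.11 and 0.24 FPKM in KO controls, with overlap. Beyond the members, *Atf3* was at 8.22, 19.4 and 2.09 FPKM in KO controls, with the female again the lowest, and had a log2 fold change of -1.47 (SE 0.50, adjusted p = 0.657). *Gadd45g* at -0.86, *Csrnp1* at -0.64 and *Bdnf*, a neurotrophin gene driven by activity, at -0.53 came next, and *Klf4* at 0.54, *Ccn2* at 0.37, *Egr2* at 0.35 and *Per1* at 0.32 had the most positive values, with none of the 36 called.

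After PTX, 7 of the 8 tested members had a higher fitted value in KO than in WT mice, and none passed the test. Both KO PTX mice lay above all WT PTX mice for *Fos*, *Junb*, *Arc*, *Ier2* and *Dusp1*, a separation that 10.7% of all genes showed. For *Ier2* it was narrow, with KO at 1.77 and 1.97 FPKM and WT at 1.76, 1.67 and 1.74 FPKM. These 5 members are correlated and share the same 5 mice, so they are not 5 independent observations. An exact two-sided permutation test gave p = 0.2 for each, the smallest it allows. *Arc* had the largest difference, at 1.30 and 1.67 FPKM in KO against 1.04, 1.03 and 0.95 FPKM in WT (log2 fold change 0.58, SE 0.26, 95% CI 0.00029 to 1.15, adjusted p = 0.993). At an unadjusted p under 0.05, *Arc* alone of the 8 was higher, where 1.81% of all genes were.

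*Fos*, at 1.80 and 1.68 FPKM against 1.35, 1.31 and 1.38 FPKM, had a log2 fold change of 0.43 (SE 0.28) and *Junb* 0.33 (SE 0.21). *Dusp1* differed by 0.19, *Nr4a1* by 0.13 and *Ier2* by 0.11, while *Egr3* had -0.31 (95% CI -0.97 to 0.36). The positive values were smaller without KO PTX mouse 3, at 0.31 for *Arc*, 0.23 for *Fos*, 0.11 for *Junb*, 0.055 for *Dusp1* and 0.029 for *Ier2*. Without KO PTX mouse 2, *Junb* was at 0.57, *Dusp1* at 0.35 and *Ier2* at 0.22. Without WT PTX mouse 3, *Fos* was at 0.73 and *Dusp1* at 0.43, while *Dusp1* was at 0.089 without WT PTX mouse 2. In males only, with 1 KO PTX mouse, *Arc* was at 0.33 and *Junb* at 0.16. The median of the 8 was 0.16 against -0.0089 over all genes, all adjusted p were 0.993, and 0.0133% of all genes were called (2 genes). *Npas4*, at 0.10 and 0.12 FPKM in KO and 0.08, 0.05 and 0.03 FPKM in WT, was separated as well, though at these counts its log2 fold change of 1.07 (fit without the filter, 95% CI -0.18 to 2.32) has a wide interval. Macrophage markers summed to 25.1 and 29.4 FPKM in KO PTX mice and 22.0 to 27.0 FPKM in WT PTX mice, which overlap. The higher spinal cord sums of the KO PTX libraries stood beside these differences, and their part was not tested.

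The test of whether PTX acted differently in the 2 genotypes used the same 11 libraries, so it shares its mice with the comparisons above. The difference of the PTX log2 fold changes, KO minus WT, was 0.46 for *Arc* (SE 0.34), 0.45 for *Ier2* (SE 0.32), 0.44 for *Junb* (SE 0.29) and -0.45 for *Egr3* (SE 0.40). The median was 0.33 over the 8 members, with 7 above 0. Without KO PTX mouse 3, *Arc* was at 0.19 and *Junb* at 0.22, and without WT control 1, *Ier2* was at 0.18 and *Egr3* at -0.14. Marker lists moved in the same contrast: the macrophage markers had a median of 0.41 with 8 of 8 above 0, the muscle markers 1.25 with 7 of 8 above 0, the fibroblast markers -0.55 with 5 of 5 below 0, and the 2 tested spinal cord markers 4.30, and their part in the values of the members was not tested. None was called, with adjusted p of at least 0.724, and 0.00663% of all genes were (1 gene). In the fit without the filter, *Npas4* had 1.41 (95% CI -0.23 to 3.05) and *Fosb* -1.01 (95% CI -2.18 to 0.16). The 95% intervals were wide, from -0.44 to 1.22 for *Fos* and from -0.31 to 1.23 for *Arc*.

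**Figure D5:**
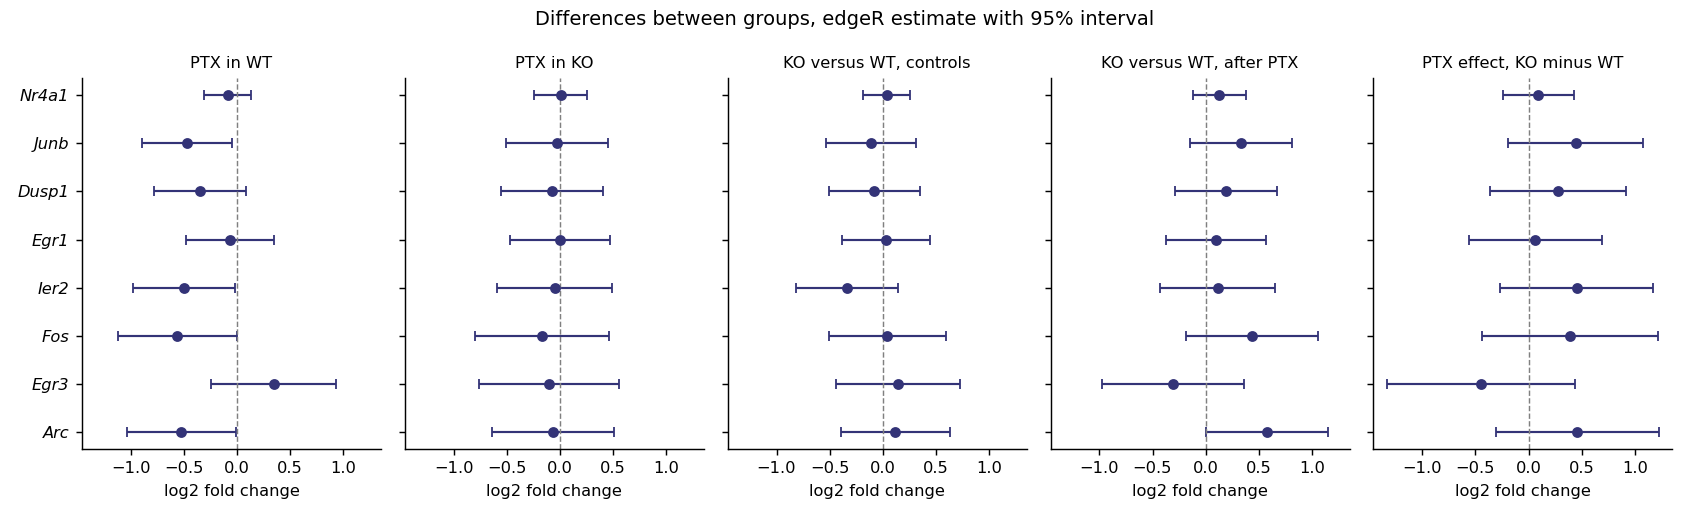
Log2 fold changes (points) with 95% intervals (bars) of the 8 tested immediate early genes in 5 comparisons, from the edgeR fit of all 11 libraries. The dashed line marks 0. For PTX in WT, 4 intervals lie below 0 before adjustment (*Fos*, *Junb*, *Arc* and *Ier2*), while for PTX in KO all 8 include 0.

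Female and male libraries were compared in the same fit, after the data were seen. The log2 difference, female minus male, was -0.60 for *Egr3* (SE 0.21, adjusted p = 0.526) and -0.21 for *Nr4a1* (SE 0.078, adjusted p = 0.547), and neither passed the test. These were 2 of the 8 members at an unadjusted p under 0.05 and lower, where 4.12% of all genes were. For *Fos* the value was -0.42 and for *Dusp1* -0.21. In every group the female mouse had the lowest *Fos* except in WT PTX, where it had the highest. Of all genes, 0.0398% were called (6 genes), none of them a member.

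The members moved together only in part. Over the 28 pairs of the 8 tested members and 11 libraries, the median Pearson r of log2(FPKM + 1) was 0.35, and 5 pairs were over 0.7. All 5 lay among *Fos*, *Junb*, *Arc* and *Dusp1*: *Junb* with *Arc* had 0.87, *Fos* with *Dusp1* 0.81, *Junb* with *Dusp1* 0.80, *Fos* with *Junb* 0.76 and *Arc* with *Dusp1* 0.73. *Egr3* was inverse to *Ier2*, with r of -0.69. After group means were removed the median r was 0.33. These libraries share one tissue and one laboratory, and depth and admixed tissue differ among them.

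The 8 genes whose pattern over the 11 libraries was most like the mean z score of the members were *Ptk2* (focal adhesion kinase, r = 0.95), *Kcnk4* (a background potassium channel, 0.93), *Rab5c* (an endosomal GTPase, 0.92), *Crat* (carnitine acetyltransferase, 0.91), *Ncdn* (neurochondrin, 0.91), *Gm47134* (0.90), *Col5a3* (a fibrillar collagen, 0.89) and *Tfe3* (a transcription factor of lysosomal genes, 0.89). In all, 118 of 15079 genes had r over 0.8 and 88 had r under -0.8. The likeness is one of pattern and not of size, since *Ncdn* had group means of 179.7 FPKM in WT controls and 154.6 FPKM in WT PTX mice, and 167.9 and 168.8 FPKM in KO controls and KO PTX mice.

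Genes upstream of the members gave no call. None of the 27 listed receptors, kinases and factors upstream of immediate early genes, all of which were tested, was called in any comparison, nor was any of 10 heat shock genes or 7 tested glucocorticoid-induced genes. The median log2 fold changes for PTX in WT were 0.023, 0.056 and -0.093 for the 3 lists, against -0.41 for the members.

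By the coordinates in the table, in GRCm38, *Fos* spans chr12:85473890-85477273 on the plus strand with no overlapping gene, and *Arc* spans chr15:74669083-74672570 on the minus strand, also free of overlaps. The *Dusp1* locus spans chr17:26505590-26562128 and overlaps *Ergic1* and *Gm8225* on the opposite strand and 2 clone-named loci on its own strand in GENCODE release M21, so that its level is uncertain. *Junb*, at chr8:84976910-84978718 in the table, ends differently in that release and there overlaps *Prdx2* on the opposite strand. The kit kept strand, but whether counting used it was not given in the sources used here.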

How the data were processed

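Poly(A) RNA of DRGs from 11 mice was sequenced with a stranded kit. The authors deposited, for each gene, FPKM scaled for length and library size, and estimated counts without normalization. Per the labels, cutadapt, FastQC, HISAT2 and StringTie were used with build mm10, with no versions given. In every library counts of 4 outnumbered counts of 3 and of 5, so the counts were treated as estimates.

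Counts were rounded and entered 1 edgeR 4.0.16 fit (R 4.3.3; TMM, quasi-likelihood test) with 4 groups and sex as terms. It covered 15087 genes averaging 0.5 FPKM or more, and adjusted p-values (Benjamini-Hochberg) under 0.05 were called. Each SE was taken from the fold change and its F statistic. FPKM values were compared by exact permutation. Alternatives used limma 3.58.1 on log2(FPKM + 1) and log2(FPKM + 0.1), and DESeq2 1.42.0. Groups, sex and replicate numbers came from the labels, and the KO PTX mice carry 2 and 3 from the descriptions, not 1 and 2 from the titles, a choice on which the replicate block rests. That each library is 1 mouse is read from those numbers, and p-values set differences against the spread between these samples. The model was tested on simulated data. Summaries used Python 3.11.15 with scipy 1.17.1, pandas 2.3.3 and numpy 2.4.6, and plots matplotlib 3.10.9.

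The members and lists were chosen with earlier results of these data known. Named in the text were all members, listed pathway genes past the threshold, the 4 most positive and 4 most negative other early genes for PTX in WT, PTX in KO and KO against WT controls, the 8 genes most like the members, and *Gpr37l1*. Lists of marker genes covered the cell types of the ganglion and of blood, muscle and spinal cord.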

Additional observations from a re-analysis of the deposited data

How the results depend on the processing

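No member passed an adjusted p of 0.05 under any alternative, in 968 member values over all comparisons, of which 71 changed sign. The lowest adjusted p was 0.0810 in WT and 0.885 in KO mice for the PTX effect, 0.368 for KO against WT controls, 0.682 for KO against WT after PTX, 0.364 for the difference of the PTX responses and 0.144 for sex. The number of all genes called changed more. For PTX in WT it was 1, and it was 309 with DESeq2, 2 without the filter, 5 with only the groups compared, and 0 with limma at either pseudocount, without the sex covariate or in males only. With DESeq2 it was 29 for PTX in KO, 42 for KO against WT controls, 10 for KO against WT after PTX, 12 for the difference of the PTX responses and 123 for sex, and the cause was not tested. With only the groups compared it was 4 in the KO mice for PTX and 5 after PTX for KO against WT, and in males only it was 3, 2, 4 and 3 for PTX in KO, KO against WT controls, KO against WT after PTX and the difference of the PTX responses. For sex it was 14 without the filter. With each library left out in turn, it ran from 0 to 30 for PTX in WT (30 without WT control 3), from 1 to 7 for PTX in KO, from 1 to 4 for KO against WT controls, from 2 to 7 for KO against WT after PTX, from 1 to 6 for the difference of the PTX responses and from 5 to 12 for sex.

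With 1 library left out in turn, the range of the log2 fold change crossed 0 for 2 of 8 tested members for PTX in WT, 7 for that effect in KO mice, 7 between KO and WT controls, 2 between them after PTX, 2 for the difference of the PTX responses and 5 for sex. The sign changes of values given in the text were as follows. For PTX in KO, the log2 fold change of *Nr4a1* was -0.0097 without the filter, -0.035 without the sex covariate, -0.021 with only the groups compared and -0.095 in males only. In males only it was -0.077 for *Nr4a1* in KO against WT after PTX, -0.051 for *Per1* with PTX in WT and -0.056 for *Plk3* with PTX in KO. The ranges with 1 library left out for PTX in WT were -0.26 to 0.031 for *Egr1*, -0.15 to 0.0031 for *Nr4a1*, -8.5e-05 to 0.31 for *Per1* and -0.063 to 0.35 for *Homer1*. For PTX in KO they were -0.37 to 0.051 for *Fos*, -0.21 to 0.082 for *Dusp1*, -0.15 to 0.18 for *Nr4a1*, -0.17 to 0.58 for *Gadd45b* and -0.035 to 0.38 for *Plk3*, with KO PTX mice 2 and 3 at the ends. For KO against WT controls they were -0.14 to 0.49 for *Egr3*, -0.83 to 0.066 for *Bdnf*, -0.19 to 0.68 for *Ccn2* and -0.053 to 0.53 for *Per1*. They were -0.020 to 0.30 for *Nr4a1* in KO against WT after PTX and -0.37 to 0.0076 for *Dusp1* by sex.

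The numbers were not taken to pair the samples, though replicate 3 also shares the labelled sex. For samples with the same number, deviations from the group means had a median correlation of 0.087 over 15 pairs (-0.16 to 0.25), with 7 over 0.1. With the replicate number as a block, 0 members and 1, 1, 1, 2 and 1 genes were called in the order of the 5 group comparisons.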
